A study of Mus musculus with 8 samples.

Results

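The genes described here are 9 that are widely used as markers of classical monocytes: Ly6c2, Vcan, Plac8, Hp, Mcemp1, S100a4, S100a6, Gda and Fn1. They were taken by symbol from a table of 22597 genes, in which each of the 9 had 1 entry, and all 9 passed the filter on low counts, which left 12750 genes. The libraries hold polyadenylated RNA of cells sorted from lung as interstitial macrophages, the macrophages that live in the tissue between airways, vessels and alveoli. The recipients were female C57BL/6 CD45.1/CD45.2 IMDTR mice (named Cx3cr1-DTR in another label), irradiated with the thorax protected. They received bone marrow of CD45.2 Tgfbr2fl/fl donors (WT, 4 libraries) or of CD45.2 Lyz2Cre Tgfbr2fl/fl donors (Tgfbr2_KO, 4 libraries), in which Cre from the Lyz2 gene deletes the TGF-β receptor chain in myeloid cells. One label gives an age of 12 to 16 weeks, and the treatment text gives 18 weeks at irradiation. After 1 month, 50 ng of diphtheria toxin was injected to empty the niche of interstitial macrophages, and cells were sorted 10 days later, so both groups share the irradiation, the transplant, the toxin and the floxed receptor alleles. Only the Tgfbr2_KO donors carried Cre, and what Cre itself does and what losing the receptor does cannot be told apart. Host cells that survive in the shielded lung are not marked in these data, and the labels do not say whether the sort selected donor cells.

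Classical monocytes leave the bone marrow through Ccr2, circulate with high Ly6C on their surface, and enter tissues, where they can differentiate into macrophages. During that differentiation monocytes are known to lose Ly6C, versican and other genes of the circulating cell while genes such as the C1q chains and Mrc1 are switched on. The 9 genes fall into surface proteins (Ly6c2, Mcemp1), secreted proteins (Hp, Vcan, Fn1) and intracellular proteins (Plac8, S100a4, S100a6, Gda). No monocyte library was analysed here, so the share of monocyte expression that the refilling cells kept cannot be computed. The levels can be compared between genotypes, and set per length against macrophage genes of the same libraries. In bulk RNA, fewer cells with a transcript and less transcript per cell cannot be told apart.

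The gene totals were between 15597300 (WT 1) and 37654100 (WT 4) counts, and the members had between 79 (Vcan in WT 1) and 61049 counts (Fn1 in WT 4) in a library. Levels are CPM (counts scaled to a fixed library total) after TMM scaling, in which 3 counts, the floor used here, are 0.0844 to 0.177 CPM. The 3 libraries WT 1, WT 2 and KO 1 carried many lung transcripts. The summed level of 12 epithelial genes was 3304 to 5927 CPM in them and 171 to 265 CPM in the other 5, and the sum of 12 endothelial genes was 2683 to 5244 against 216 to 293 CPM. These 3 are called lung-rich below. C1qa, a complement chain of tissue macrophages, had 2099.6, 2238 and 1398 CPM in them and 2974 to 3244 CPM in the other 5. KO 1 is the only lung-rich Tgfbr2_KO library and had the highest epithelial and endothelial sums. Tgfbr2 itself, counted over the whole gene, was at 474 to 548 CPM in WT and 424 to 576 CPM in Tgfbr2_KO, which does not check the deletion of part of the gene. Lyz2, which carries Cre, was at 7285 to 13193 CPM in WT and at 3440 to 5611 CPM in Tgfbr2_KO, with no overlap. The labels do not tie each library to a separate mouse. The p-values therefore measure only how these libraries spread, which may be technical.

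Transcripts of all 9 genes were present in every library, from levels near those of macrophage genes to levels near the bottom of the tested range. Levels of different genes were compared as CPM per kb of the longest annotated transcript, ranked as a percentile among the 12750 tested genes of the library. On this length S100a4 ranked highest, between percentiles 97.4 and 98.7 over the 8 libraries, and Fn1 (94.6 to 97.9) and S100a6 (94.5 to 96.1) followed with ranges that overlap each other. Gda (82.6 to 94.1) and Plac8 (85.2 to 94.0) came next and could not be separated. Mcemp1 (59.5 to 82.1), Hp (59.3 to 81.3) and Ly6c2 (46.9 to 77.9) overlapped in the middle of the range. The order within such neighbours depends on the length used: with the median transcript length, Fn1 had the highest median percentile (97.7, against 96.5 for S100a4), and Ly6c2 (74.6) stood above Hp (57.6) and Mcemp1 (50). Vcan was far below the others, at percentiles 3.40 to 14.2, and its range did not overlap that of any other member. Ly6c2 had a mean of 12.9 and Vcan of 0.413 CPM per kb, whereas the macrophage genes C1qa, Csf1r (the receptor for CSF1) and Mrc1 (CD206) had means of 2564, 536 and 346 CPM per kb. Other genes of the 20 on the macrophage list were lower, at 22.6 for Tmem119, 23.8 for Cd163, 26.6 for Mertk, 28.8 for Maf and 45.2 CPM per kb for Fcgr1, which are below the mean of Plac8 (53.5). Ccr2, the chemokine receptor of classical monocytes, which some macrophages keep, stood at percentiles 91.8 to 96.6. The members are thus spread over most of the range. The intracellular S100 genes and Fn1 stood high, while Vcan stood low. S100a4, S100a6 and Fn1 are also expressed by many macrophages and by fibroblasts, so a high rank of theirs is not particular to monocytes.

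**Figure D1:**
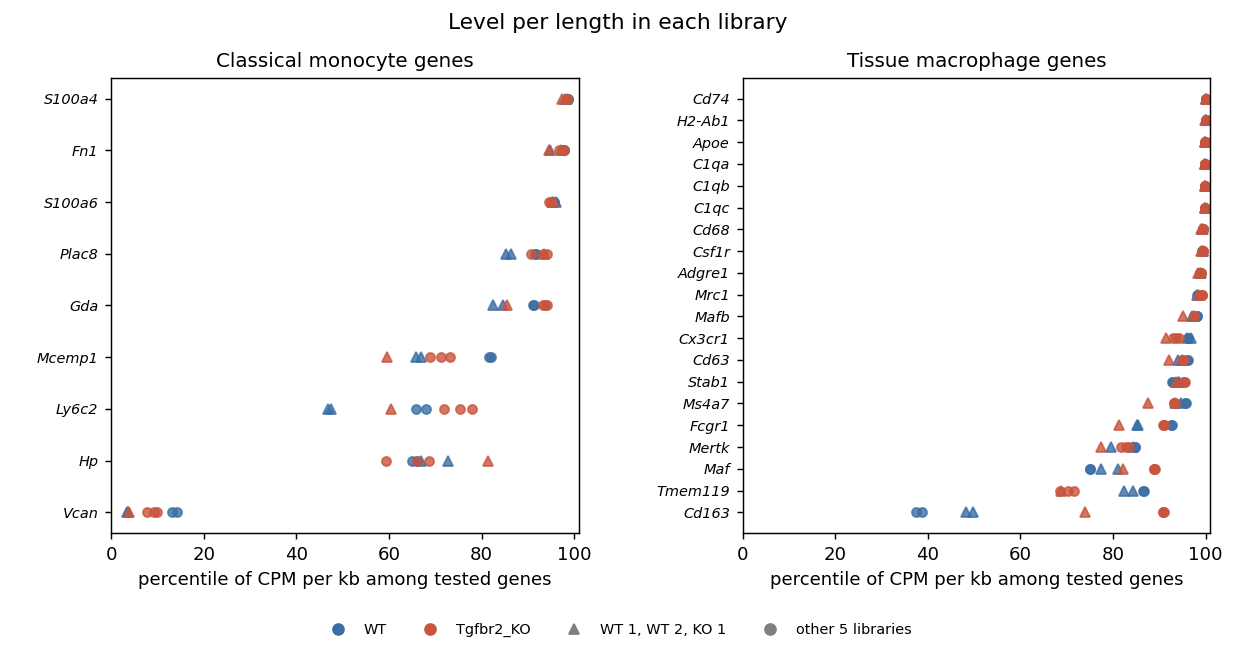
Percentile of CPM per kb of the longest transcript among the 12750 tested genes, for each of the 8 libraries, for the 9 classical monocyte genes (left) and 20 tissue macrophage genes (right). Colours give the genotype and triangles the lung-rich libraries WT 1, WT 2 and KO 1. Vcan lies between 3.40 and 14.2, Ly6c2 between 46.9 and 77.9, and S100a4 between 97.4 and 98.7.

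Over all 8 libraries, none of the 9 genes passed as higher or lower in Tgfbr2_KO (edgeR quasi-likelihood test, adjusted p under 0.05, adjusted over 12750 genes). Among all genes tested, 0.196% were called higher and 0.102% lower, so this count of 0 of 9 is near the background. DESeq2 and limma-voom also called 0 members, and 1 member, Ly6c2, had an unadjusted edgeR p under 0.05. The genotypes overlapped for each of the 9 genes. Among all tested genes 4.19% lay higher without overlap in Tgfbr2_KO and 2.71% lower, so 0 of 9 is near this background as well. The median log2 fold change of the members was 0.02, beside -0.01 for all tested genes. The list did not move one way: Ly6c2, Gda and Plac8 had the highest fold changes and Mcemp1, Vcan and S100a6 the lowest.

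The lung-rich libraries were low for several members in both genotypes, which widened the spread of each group. In WT, the mean of WT 1 and WT 2 was 49.0% of that of WT 3 and WT 4 for Mcemp1, 50.6% for Gda, 51.1% for Fn1, 52.1% for Ly6c2 and 55.2% for Plac8. It was 87.6% for S100a6 and 122% for Hp. With the library set as a term in the model, Ly6c2 and Gda were called higher and Mcemp1 lower in Tgfbr2_KO (edgeR adjusted p under 0.05). In that fit 8.59% of all tested genes were called higher and 7.89% lower, and the median of the members was -0.22 beside 0.03 for all genes. Within the other 5 libraries (WT 3 and WT 4 against KO 2 to 4), 2 members were called higher (Ly6c2, Gda) and 4 lower (Vcan, Mcemp1, S100a4, S100a6), with a median of -0.14 beside -0.002 for all genes. There, 19.7% of genes were called higher and 18.7% lower. Within the lung-rich libraries, where KO 1 alone stands against WT 1 and WT 2, 2 members were called higher (Ly6c2, Plac8) and 0 lower, against 3.16% and 1.95% of all genes. WT 3 and WT 4 differed from each other by little more than counting noise, since their median chi-square over genes was 1.86 in units of the value counting alone gives. The same ratio was 4.55 between WT 1 and WT 2 and 2.08 to 3.18 among KO 2, KO 3 and KO 4. When WT 3 and WT 4 were summed into 1 library and KO 4 dropped, with the set as a term, 0 members were called (0.519% of genes higher, 0.853% lower).

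**Figure D2:**
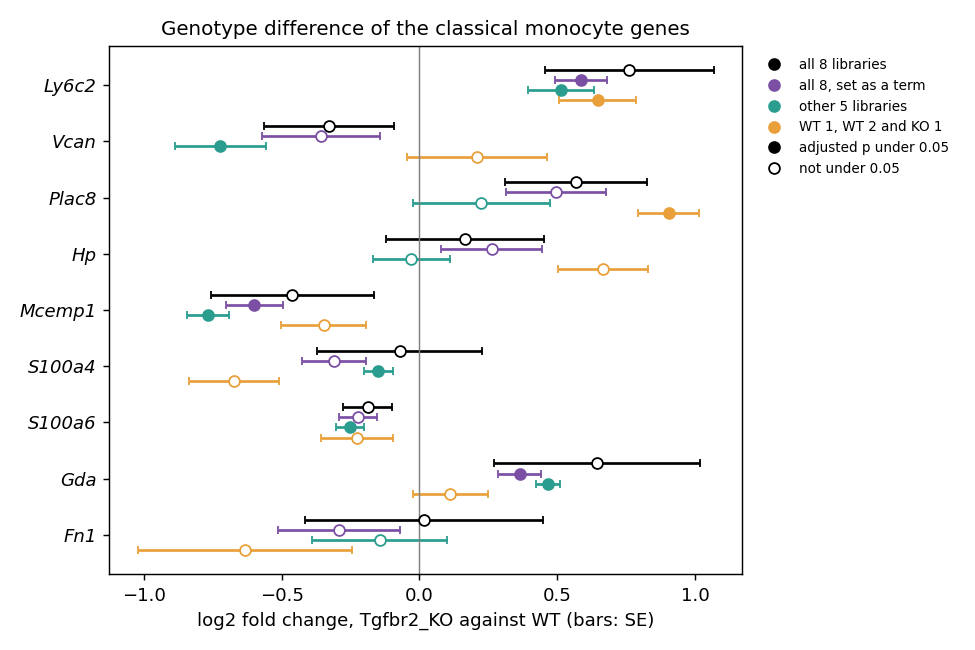
log2 fold change of Tgfbr2_KO against WT with its SE for the 9 genes, in all 8 libraries, with the library set as a term, in the other 5 libraries and in WT 1, WT 2 and KO 1. Filled points have an edgeR adjusted p under 0.05: there are 0 for all 8 libraries, 3 with the set term, 6 within the other 5 and 2 within the lung-rich libraries.

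Ly6c2 (GRCm38 chromosome 15, 75108158 to 75111970, minus strand) encodes the GPI-anchored surface protein Ly6C that defines classical monocytes and is also found on some lymphocytes and plasmacytoid dendritic cells. It was at 17.98, 17.2, 32.3 and 35.2 CPM across WT 1 to 4, against 28.8, 41.7, 55.2 and 48.5 CPM across KO 1 to 4. KO 2, KO 3 and KO 4 were above every WT library, and KO 1 lay above WT 1 and WT 2 but below WT 3 and WT 4. The means were 43.5 ± 11.3 CPM in Tgfbr2_KO and 25.7 ± 9.41 CPM in WT (SD, n = 4 each). That is 0.76 on the log2 scale (SE 0.31), with an edgeR adjusted p = 0.432. The set term gave 0.59 (SE 0.09, edgeR adjusted p = 0.00557), within the other 5 libraries 0.51 (edgeR adjusted p = 0.0131) and within the lung-rich ones 0.65 (edgeR adjusted p = 0.0466). It did not pass in the fit with KO 4 left out and WT 3 and WT 4 summed (0.57, edgeR adjusted p = 0.0883). KO 1 held 164% of the mean of WT 1 and WT 2, and KO 2 to 4 together held 144% of that of WT 3 and WT 4. Of the 31-base words in the annotated Ly6c2 transcripts, 21.4% also occur in transcripts of its neighbour Ly6c1, an endothelial gene, so reads can be divided between these genes. Ly6c1 reached 95.8, 83.4 and 174 CPM in WT 1, WT 2 and KO 1 and stood at 5.25 to 10.5 CPM in the other 5. In WT 1, WT 2 and KO 1, Ly6c2 was at 17.98, 17.2 and 28.8 CPM. KO 1 thus held 194% of the mean of WT 1 and WT 2 for Ly6c1 and 164% for Ly6c2. The part of shared reads in the Ly6c2 level was not tested. The summed level of 13 lymphocyte markers was 68.6 to 78.0 CPM in WT and 86.6 to 108 CPM in Tgfbr2_KO, and that of 8 dendritic cell markers was 68.4 to 96.9 and 111 to 114 CPM. Both sums were without overlap between genotypes, but 0 of the dendritic cell markers and 0 of the 7 lymphocyte markers tested were so by themselves. Most of the lymphocyte sum in KO 2, KO 3 and KO 4 was Cd4, at 56.9, 79.4 and 67.0 CPM. Cd4 was at 28.3 CPM in KO 1 and 13.7 to 40.0 CPM in WT. The T cell genes Cd3e, Cd3g and Trac were highest in KO 1 (1.55 to 2.08 CPM) and at 0.220 CPM or less in KO 2 to 4. Clec9a, of conventional dendritic cells, was highest in WT 3 and WT 4 (14.2 and 12.4 CPM), and Siglech, of plasmacytoid dendritic cells, was at 2.25 to 7.45 CPM in WT and 5.06 to 10.2 CPM in Tgfbr2_KO. Their part in the Ly6c2 difference was not tested.

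The promoter of Ly6c2 is shown because this gene was the member with the same call in both library sets. It is the window from 250 bases before to 50 after a RefSeq start (GRCm38.p6, chr15:75111922-75112221, minus strand), with matches to the PU.1 core GAGGAAG in capitals. PU.1 is the ETS factor that myeloid cells depend on.
Ly6c2: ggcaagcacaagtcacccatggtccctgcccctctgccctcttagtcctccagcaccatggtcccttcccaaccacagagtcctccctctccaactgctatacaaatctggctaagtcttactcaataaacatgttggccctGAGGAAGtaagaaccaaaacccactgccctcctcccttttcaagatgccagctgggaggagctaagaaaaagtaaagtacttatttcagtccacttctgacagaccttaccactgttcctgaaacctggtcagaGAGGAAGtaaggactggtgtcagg
The matches begin at -108 and at 27 from the start. From the other RefSeq start of Ly6c2 (window chr15:75111888-75112187) the same matches begin at -142 and -8. The RefSeq table held windows for 7 of the 9 members, all but Hp and Fn1, and 2 of these 7 (Ly6c2 and S100a4) had the letters GAGGAAG on either strand, against 13.6% of the 32851 windows of the table. The C/EBP letters TTGCNNAA were in windows of 2 members, Plac8 and Gda, against 10.8% of all windows. Members were counted once each, although Ly6c2 and Plac8 had a second window. A match is a description of the letters and not of a bound site.

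Mcemp1 (chromosome 8, 3665754 to 3669259, plus strand) encodes a single-pass membrane protein of monocytes, neutrophils and mast cells. It was at 18.6, 19.1, 39.1 and 37.8 CPM across WT 1 to 4, against 15.5, 20.5, 24.6 and 22.7 CPM across KO 1 to 4. WT 3 and WT 4 stood above all other libraries, and WT 1 and WT 2 lay among the Tgfbr2_KO libraries. The log2 fold change was -0.46 (SE 0.30, edgeR adjusted p = 0.759) over all 8, -0.60 with the set term (edgeR adjusted p = 0.00783), -0.77 within the other 5 libraries (edgeR adjusted p = 1.24e-07) and -0.35 within the lung-rich ones (edgeR adjusted p = 0.24). The fit with KO 4 left out and WT 3 and WT 4 summed gave -0.56 (edgeR adjusted p = 0.0994). WT 3 and WT 4 also stood apart in some genes of neutrophils and of alveolar macrophages. The summed level of 13 neutrophil genes was 88.1 and 88.4 CPM in WT 3 and WT 4 and 43.6 to 56.6 CPM in the other 6 libraries, and S100a8, S100a9 and the collagenase Mmp8 were all highest there. S100a8 and S100a9 belong to the further monocyte list as well, as does Chil3 of the alveolar list. Of the same neutrophil list, Ly6g was at 0.132 CPM or less and Elane at 0 in every library. Retnlg of that list was at 6.15 and 5.68 CPM in WT 3 and WT 4 and at 1.58 to 3.85 CPM in the other 6. Cxcr2 and Ngp were at 1.67 to 2.91 and 2.60 to 5.13 CPM over the 8 libraries. Chil3, a chitinase-like protein of classical monocytes and alveolar macrophages, was at 348 and 347 CPM in WT 3 and WT 4 and at 15.8 to 30.0 CPM in the other 6. The sum of 10 alveolar macrophage genes was 458 and 459.9 CPM in WT 3 and WT 4 and 61.8 to 153 CPM in the other 6. Besides Chil3, Plet1 (24.5 and 26.6 CPM, against 1.21 to 6.54), Atp6v0d2 (68.4 and 66.9 CPM, against 8.69 to 37.9) and Siglecf (3.54 and 5.15 CPM, against 1.02 to 2.59) were highest in WT 3 and WT 4. Marco was lowest there (0.205 and 0.197 CPM, against 0.542 to 1.22), and Fabp1 was at 0.0513 to 0.439 CPM over the 8 libraries. Car4 of the alveolar list was highest in the lung-rich libraries WT 1, WT 2 and KO 1, at 64.1, 54.85 and 107 CPM. It was at 11.9 and 11.7 CPM in WT 3 and WT 4 and at 5.08 to 6.22 CPM in KO 2 to 4. How much these cells contribute to Mcemp1 in WT 3 and WT 4 was not tested.

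Hp (chromosome 8, 109575128 to 109579172, minus strand) encodes haptoglobin, which binds free haemoglobin. It was at 21.6, 17.3, 15.5 and 16.3 CPM across WT 1 to 4, against 32.1, 12.4, 18.3 and 16.4 CPM across KO 1 to 4. KO 1 was the highest library and KO 2 the lowest, so the spread within Tgfbr2_KO exceeded the difference between genotypes. The means were 19.8 ± 8.59 and 17.7 ± 2.71 CPM (SD, n = 4 each), and the log2 fold change was 0.17 (SE 0.29, edgeR adjusted p = 1.00). It was -0.03 within the other 5 libraries and 0.67 within the lung-rich ones (edgeR adjusted p = 0.897 and 0.0624). Haptoglobin is also made by lung epithelium, and the summed epithelial level was highest in KO 1 (5927 CPM) and WT 1 (3782 CPM), the libraries in which Hp was highest. WT 2, at 3304 CPM for the epithelial sum, had less Hp than KO 3, at 227 CPM. The part of epithelial RNA in the Hp level was not tested.

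Vcan (chromosome 13, 89655312 to 89742509, minus strand) encodes versican, a large matrix proteoglycan that classical monocytes express at high levels. Its transcript was scarce here, at 4.67, 4.26, 6.51 and 7.42 CPM across WT 1 to 4, against 5.39, 3.42, 4.64 and 4.78 CPM across KO 1 to 4. WT 3 and WT 4 were highest and KO 2 was lowest. Over all 8 libraries the log2 fold change was -0.33 (SE 0.23, edgeR adjusted p = 0.812). Within the other 5 libraries Vcan was lower in Tgfbr2_KO (-0.72, SE 0.16, edgeR adjusted p = 0.00162), whereas within the lung-rich ones it was at 0.21 (SE 0.25, edgeR adjusted p = 0.701). Fibroblasts also express versican, and the sum of 12 fibroblast genes was 1176 to 1917 CPM in the lung-rich libraries against 161 to 212 CPM in the others. Their part in the Vcan level was not tested.

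Fn1 (chromosome 1, 71585520 to 71653200, minus strand) encodes fibronectin, a matrix glycoprotein that monocytes and monocyte-derived macrophages secrete. It was the member with the most counts, at 633, 1132, 1737 and 1717 CPM across WT 1 to 4, against 596, 1205, 1929 and 1549.9 CPM across KO 1 to 4. WT 1 and KO 1 held the lowest levels and KO 3 the highest, and the genotypes overlapped over nearly their whole range. The means were 1320.2 ± 566 CPM in Tgfbr2_KO and 1305 ± 529 CPM in WT (SD, n = 4 each), with a log2 fold change of 0.02 and a 95% interval of -0.99 to 1.03 (edgeR adjusted p = 1.00). The interval is wide and covers changes of that size in either direction. The sum of 12 fibroblast genes was 1258, 1176 and 1917 CPM in WT 1, WT 2 and KO 1, where Fn1 was at 633, 1132 and 596 CPM. The part of fibroblast RNA in the Fn1 level was not tested.

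Plac8 (chromosome 5, 100553725 to 100572245, minus strand) encodes a small cysteine-rich intracellular protein of monocytes, neutrophils and plasmacytoid dendritic cells. It was at 38.8, 36.3, 66.9 and 69.0 CPM across WT 1 to 4, against 73.4, 59.99, 95.1 and 84.5 CPM across KO 1 to 4. KO 2 alone among the Tgfbr2_KO libraries lay below WT 3 and WT 4. The means were 78.3 ± 15.1 and 52.7 ± 17.6 CPM (SD, n = 4 each), which is 0.57 as log2 fold change (SE 0.26) with edgeR adjusted p = 0.522. The set term gave 0.50 (edgeR adjusted p = 0.105), the other 5 libraries 0.23 (edgeR adjusted p = 0.561) and the lung-rich ones 0.90 (edgeR adjusted p = 0.0165), where KO 1 held 196% of the mean of WT 1 and WT 2. The part of the dendritic cell markers, given above for Ly6c2, in the Plac8 level was not tested.

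Gda (chromosome 19, 21391307 to 21473445, minus strand) encodes guanine deaminase, an enzyme of purine breakdown. It was at 136, 155, 285 and 289.9 CPM across WT 1 to 4, against 165, 421, 372 and 396 CPM across KO 1 to 4. The KO 2 to 4 libraries stood above every WT library, and KO 1 lay just above WT 1 and WT 2. The means were 338 ± 118 and 216 ± 82.3 CPM (SD, n = 4 each), which is 0.64 as log2 fold change (SE 0.37) with edgeR adjusted p = 0.687. With the set term Gda was higher by 0.36 (SE 0.08, edgeR adjusted p = 0.0176) and within the other 5 libraries by 0.47 (SE 0.04, edgeR adjusted p = 1.42e-06), while the lung-rich libraries gave 0.11 (SE 0.14, edgeR adjusted p = 0.696). With KO 4 left out and WT 3 and WT 4 summed it did not pass (0.29, edgeR adjusted p = 0.269).

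S100a4 (chromosome 3, 90603771 to 90606045, plus strand) and S100a6 (90612882 to 90624181, plus strand) lie next to each other and encode small calcium-binding proteins of migrating cells. S100a4 was at 122, 94.9, 166 and 172 CPM across WT 1 to 4, against 71.0, 165, 143 and 149 CPM across KO 1 to 4. S100a6 was at 80.8, 67.8, 84.5 and 85.1 CPM across WT 1 to 4, against 66.4, 75.3, 66.0 and 71.9 CPM across KO 1 to 4. KO 1 was lowest for S100a4, and S100a6 varied least of all members, with an SD of 0.153 on the log2 scale over the 8 libraries against 0.658 for Fn1. The log2 fold changes were -0.07 (SE 0.30) for S100a4 and -0.19 (SE 0.09) for S100a6 (edgeR adjusted p = 1.00 and 0.558). Within the other 5 libraries both were lower in Tgfbr2_KO, at -0.15 (SE 0.05, edgeR adjusted p = 0.0416) and -0.25 (SE 0.05, edgeR adjusted p = 5.75e-04). These differences were small, with KO 2 to 4 holding 90.1% and 83.8% of the mean of WT 3 and WT 4. Of the 31-base words of S100a4, 49.2% also occur in an overlapping gene model, Gm42674, which is listed at 0 counts in every library.

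**Figure D3:**
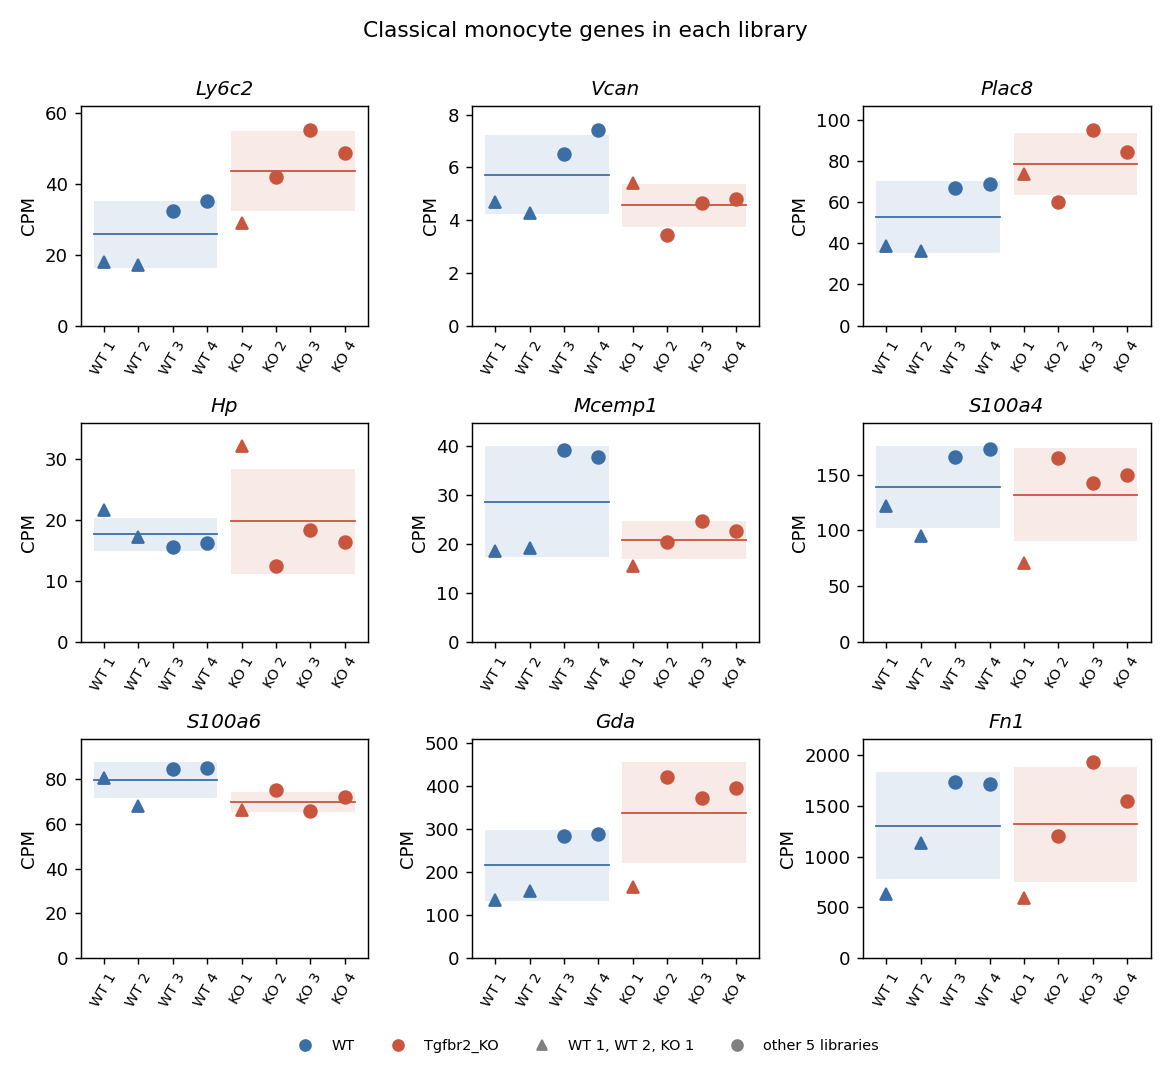
CPM of each classical monocyte gene in the 8 libraries, with circles for the other 5 libraries and triangles for WT 1, WT 2 and KO 1. Lines are the means and shaded bands 1 SD of the 4 libraries of a genotype. Every axis starts at 0, and the genotypes overlap in each of the 9 panels.

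A list of 40 further classical monocyte genes was described in the same way. All 40 were tested, and over all 8 libraries 3 were higher in Tgfbr2_KO, 0 lower and 37 did not pass. Among all tested genes, 0.196% were called higher and 0.102% lower. The median log2 fold change was -0.05 for the 40, beside -0.01 for all tested genes. This list was chosen with earlier results of these data known, so its count is a description only. The 3 called higher were F13a1, Ifitm3 and Lyz1. F13a1, the coagulation factor XIII A chain, which CD206-positive macrophages also express, was at 249.1, 170, 214 and 205 CPM across WT 1 to 4, against 485, 1343, 1404 and 1347 CPM across KO 1 to 4 (log2 fold change 2.45, edgeR adjusted p = 0.0476). The antiviral membrane protein gene Ifitm3 was at 138 to 187 CPM in WT and 351 to 380 CPM in Tgfbr2_KO (1.18, edgeR adjusted p = 0.0197). Lyz1, a lysozyme gene nearly identical to Lyz2, was at 138 to 174 CPM in WT and 759 to 1758 CPM in Tgfbr2_KO (3.18, edgeR adjusted p = 0.0197). Since Lyz2 carries Cre and reads of the lysozyme genes can be divided between them, the Lyz1 value is uncertain. Each of the 3 calls was lost on dropping any library but KO 1, with edgeR adjusted p up to 0.297, 0.191 and 0.191. The log2 fold changes then ranged from 2.34 to 2.70 for F13a1, from 1.118 to 1.265 for Ifitm3 and from 3.08 to 3.39 for Lyz1. F13a1 also lost its call with RLE scaling, upper quartile scaling and no filter (edgeR adjusted p = 0.0505, 0.0546 and 0.0582), which left 2 of the 40 called higher.

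Next in the list stood Ifitm6 (1.58) and S100a11 (-0.24), both without overlap between genotypes and without passing (edgeR adjusted p = 0.0606 and 0.249). Ccr2 was at 578, 419, 802 and 808 CPM across WT 1 to 4, against 285, 685, 539 and 604 CPM across KO 1 to 4 (-0.30, edgeR adjusted p = 0.964). The alarmin genes S100a8 and S100a9 had -0.61 and -0.43 (edgeR adjusted p = 0.423 and 0.712). Chil3 had -3.40 (edgeR adjusted p = 0.256), which rests on WT 3 and WT 4. With the set as a term 5 of the 40 were higher and 11 lower (8.59% and 7.89% of all tested genes). Within the other 5 libraries 9 and 18 were (19.7% and 18.7% of all tested genes). With KO 4 left out and WT 3 and WT 4 summed, 4 were higher (Ifitm3, Ifitm6, Lyz1 and the transcription factor Cebpd) and 1 lower, Tgfbi, a matrix protein gene induced by TGF-β (0.519% and 0.853% of all tested genes). Cebpd and Tgfbi were named after their values were seen, and over all 8 libraries their log2 fold changes were 0.30 and -0.67 (edgeR adjusted p = 1.00 and 0.699).

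As macrophage genes such as C1qa were lower in the 3 lung-rich libraries, the members were also set against the geometric mean of the CPM of 20 tissue macrophage genes in the same library, a scaling chosen after the data were seen. That mean was 595, 639.8, 826 and 836 CPM in WT 1 to 4 and 452, 898, 898 and 898 CPM in KO 1 to 4. Per 1000 CPM of it, Ly6c2 was at 30.2, 26.8, 39.1 and 42.1 in WT 1 to 4 and at 63.7, 46.5, 61.4 and 54.0 in KO 1 to 4. Gda was at 228, 242, 344 and 347 in WT and at 364, 469, 414 and 441 in Tgfbr2_KO. On this scale 2 members, Ly6c2 and Gda, were higher in Tgfbr2_KO without overlap and 0 were lower, against 2.93% and 2.03% of all tested genes. Plac8 overlapped through KO 2, at 66.8 against 56.7 to 82.5 in WT. Mcemp1, S100a4, S100a6, Hp, Vcan and Fn1 also overlapped. KO 1 had the lowest macrophage mean, and in CPM its Ly6c2 (28.8) and Gda (165) were below WT 3 and WT 4. On this scale KO 1 was the highest library for Ly6c2, Plac8 (163), S100a6 (147), Hp (71.1) and Vcan (11.9). It was not the highest for Gda, Mcemp1, S100a4 or Fn1. How far RNA of other lung cells raised KO 1 on this scale was not tested. Of the 20 genes behind this scaling, 2 were higher and 2 lower in Tgfbr2_KO without overlap in CPM, against 4.19% and 2.71% of all tested genes. Over all 8 libraries 0 of the 20 were called higher and 1 lower, against 0.196% and 0.102% of all tested genes. Cd163 was at 3.51 to 7.04 CPM per kb in WT and 17.4 to 51.5 in Tgfbr2_KO, and Maf at 18.1 to 23.4 and 24.9 to 42.8. Cx3cr1 was at 99.8 to 128 CPM per kb in WT and 47.5 to 79.7 in Tgfbr2_KO, and Tmem119 at 24.7 to 35.1 and 13.5 to 15.4.

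The members did not vary together as a block. Ly6c2 with Plac8 and Ly6c2 with Gda were the pairs most alike. The root mean square difference of log2 CPM, each gene centred on its mean over the 8 libraries, was 0.235 between Ly6c2 and Plac8 and 0.241 between Ly6c2 and Gda. Mcemp1 and S100a4 differed by 0.304, and Hp and Fn1 were the least alike, at 0.92. The 5 genes closest to Ly6c2 among 8679 with at least 10 CPM were Rsad2 (0.078), Irf7 (0.122), Ifi27l2a (0.126), Oas3 (0.137) and Pilrb2 (0.154), all nearer to it than any other member. Rsad2 was at 18.1, 18.6, 38.7 and 38.8 CPM across WT 1 to 4, against 30.7, 45.5, 57.5 and 57.0 CPM across KO 1 to 4, so its libraries stand in nearly the same order as those of Ly6c2. Rsad2, Irf7, Ifi27l2a and Oas3 are known as genes induced by type I interferon. The 5 closest to Plac8 were Ifi213 (0.166), Isg15 (0.199), Oasl2 (0.206), Ifi206 (0.212) and Ifit2 (0.222), which are interferon-induced too. Fn1 was closest to Cxcl3 (0.143), Aph1c (0.191), Ms4a6d (0.194), Ly9 (0.208) and Cytip (0.219), a set low in WT 1 and KO 1. These are likenesses over 8 libraries that share the lung-rich split and the genotypes, and are given as a description.

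**Figure D4:**
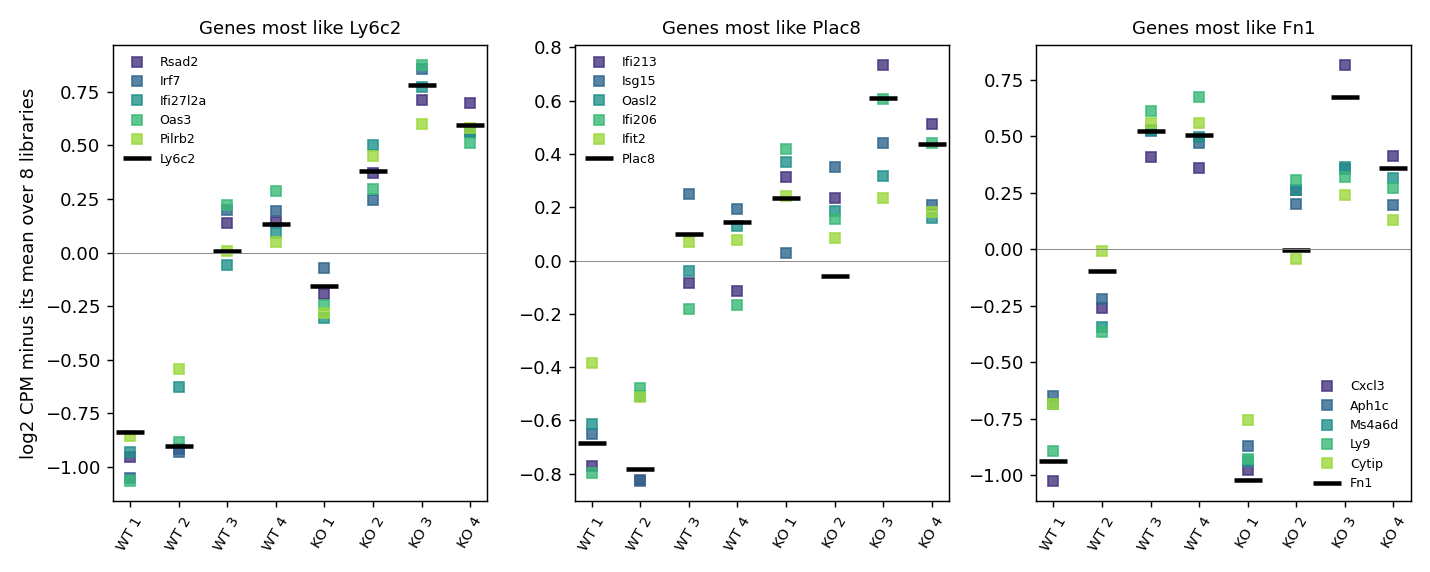
log2 CPM minus its mean over the 8 libraries for Ly6c2, Plac8 and Fn1 (black bars) and for the 5 genes with the smallest root mean square difference from each (squares). For Ly6c2 the bars run from the low WT 1 and WT 2 to KO 3, the highest, and Rsad2 differs from it by a root mean square of 0.078. Fn1 and the genes like it are lowest in WT 1 and KO 1.

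The promoters of Rsad2, of Plac8 and of Isg15 are printed beside that of Ly6c2 to show where the letters of an interferon-stimulated response element (ISRE), GAAA then any 2 bases then GAAA on either strand, do and do not occur. This motif was added after the likeness was seen. The windows are GRCm38.p6 chr12:26456403-26456702 (Rsad2), chr5:100563047-100563346 (Plac8, the second of its RefSeq starts) and chr4:156200769-156201068 (Isg15), all on the minus strand. Capitals mark the ISRE letters in Rsad2 and Isg15 and the C/EBP letters in Plac8.
Rsad2: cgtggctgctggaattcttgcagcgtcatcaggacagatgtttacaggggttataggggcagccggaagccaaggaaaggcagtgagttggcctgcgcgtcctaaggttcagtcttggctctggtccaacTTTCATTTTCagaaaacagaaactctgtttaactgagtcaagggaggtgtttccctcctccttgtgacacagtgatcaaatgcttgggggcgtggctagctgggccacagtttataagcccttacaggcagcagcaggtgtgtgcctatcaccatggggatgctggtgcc
Plac8: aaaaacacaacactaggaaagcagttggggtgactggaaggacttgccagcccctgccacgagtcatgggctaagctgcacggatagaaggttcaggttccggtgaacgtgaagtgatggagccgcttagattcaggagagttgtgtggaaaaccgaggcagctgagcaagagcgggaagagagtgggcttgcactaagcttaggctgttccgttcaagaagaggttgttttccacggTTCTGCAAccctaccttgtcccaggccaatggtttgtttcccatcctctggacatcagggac
Isg15: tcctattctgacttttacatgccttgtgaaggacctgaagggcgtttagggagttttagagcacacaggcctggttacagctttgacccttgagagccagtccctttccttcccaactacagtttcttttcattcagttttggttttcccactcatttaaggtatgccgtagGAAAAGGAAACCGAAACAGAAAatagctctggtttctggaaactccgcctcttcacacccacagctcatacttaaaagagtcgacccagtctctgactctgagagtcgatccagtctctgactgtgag
The match in Rsad2 begins at -120, and Isg15 has 3 overlapping matches that begin at -78, -72 and -66. Of the genes with a window, ISRE letters were found for 3 of 4 most like Ly6c2, 3 of 5 most like Plac8 and 1 of 3 most like Fn1. Each gene was counted once, although Ifit2, Plac8 and Ly6c2 had a second window. The letters were in 0 of the 7 members with a window, and in 3.44% of all windows. No match says only that these letters are not in this stretch of 300 bases.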

How the data were processed

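RNA of macrophages sorted from lung was measured in 8 libraries, 4 per genotype. The table deposited by the authors holds estimated counts per gene from salmon, merged over the libraries, per the file headers and name. GRCm38 and DESeq2 1.40.1 are named in the submitters' processing notes. For salmon, neither version nor annotation, strand setting and filters were found (not given in the sources used here). Counts were rounded, then tested in R 4.3.3 using edgeR 4.0.16 (filterByExpr with minimum count 10 and minimum total 15, TMM, robust quasi-likelihood F-test, group only, Benjamini-Hochberg adjustment over all genes). CPM use TMM-scaled totals, which range between 15597300 and 37654100 counts before scaling. Alternatives used other scalings, no filter, DESeq2 1.42.0, limma-voom 3.58.1, a replicate block, each library left out and the library sets. The exact permutation test was two-sided, on log2 (CPM + 0.5).

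The members and all gene lists were chosen with earlier results of these data known. Named genes are the 9 members, Tgfbr2, Lyz2, 6 fixed and 4 other genes of the further monocyte list with the smallest adjusted p, 4 macrophage genes, Ly6c1, abundant markers of other cells and the 5 genes most like Ly6c2, Plac8 and Fn1. A gene under this rule is not reported here. Mmp8, other markers of neutrophils, lymphocytes, dendritic cells and alveolar macrophages and further macrophage genes were picked with values in view. The lists held genes of monocytes, macrophages, neutrophils, lymphocytes, dendritic cells, alveolar macrophages, fibroblasts, epithelium, endothelium, platelets and erythroid cells. Summed levels of the lists not given in the report were 1784 to 2777 CPM for non-classical monocytes and 191 to 416 CPM in WT and 513 to 613 CPM in Tgfbr2_KO for platelets with erythroid cells, of which Pf4 was at 134 to 176 and 223 to 483 CPM. Positions and transcript lengths come from GENCODE M21 and promoters from RefSeq. The analysis was tested on simulated data with known changes.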

Additional observations from a re-analysis of the deposited data

Results flagged for a closer look

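The genotype difference of 2 members was not the same in the lung-rich and the other libraries by a test of the interaction (edgeR, adjusted over all genes). For Vcan the log2 fold change was higher by 0.99 (SE 0.29, edgeR adjusted p = 0.0388) in the lung-rich libraries, at 0.21 there and -0.72 in the other 5. For Mcemp1 it was higher by 0.49 (SE 0.15, edgeR adjusted p = 0.0405), at -0.35 and -0.77. Among all tested genes 18.9% had such a difference, so 2 of 9 members is near this background. The lung-rich value rests on KO 1 as the only Tgfbr2_KO library. The library sets were defined from the data and are not groups of the study.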

How the results depend on the processing

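Over all 8 libraries, the count of 0 members called either way was the same under DESeq2, limma-voom, RLE and upper quartile scaling, library totals, no filter, the replicate block and each left-out library, and 0 of 9 passed the exact permutation test, whose smallest possible p is 0.0286. It moved to 2 higher and 1 lower with the set term, to 2 and 4 in the other 5 and to 2 and 0 within the lung-rich libraries, and 2 members were higher without overlap relative to the geometric mean or the sum of the macrophage genes. Over all genes the 25 higher and 13 lower became 53 and 28 with library totals, 314 and 152 with DESeq2, 0 and 0 with the replicate block, 1095 and 1006 with the set term, 2493 and 2363 in the other 5 libraries, 443 and 273 among the lung-rich and 70 and 115 with KO 4 left out and WT 3 and WT 4 summed. Leaving out single libraries gave 0 to 619 higher and 0 to 241 lower, and 0 to 4 and 0 to 1 of the further list. The 3 and 0 of the further list became 0 higher with the replicate block, 5 and 11 with the set term, 9 and 18 in the other 5 libraries, 4 lower in the lung-rich ones, and 1 lower with DESeq2 and with the summed library. The direction of Vcan turned in the lung-rich libraries (0.21), as did that of S100a8 (0.056) and S100a9 (0.26), and that of Hp in the other 5 (-0.029). Fn1 turned with library totals (-0.009), the set term (-0.29), the other 5 (-0.14), the lung-rich libraries (-0.63) and the summed library (-0.38). With single libraries left out, Hp ranged from -0.17 (without KO 1) to 0.31, S100a4 from -0.22 to 0.13, Fn1 from -0.23 to 0.26 and Cebpd from -0.29 to 0.65. The cause was not tested. Ranked by the median instead of the longest transcript, the median percentile moved from 8.54 to 18 for Vcan, from 91.6 to 86.0 for Plac8, from 66.5 to 57.6 for Hp, from 70.0 to 50.0 for Mcemp1, from 98.4 to 96.5 for S100a4 and from 95.3 to 89.7 for S100a6. Replicate numbers are shared by the genotypes, and the deviations of same-numbered libraries correlated at 0.867, -0.794, 0.694 and 0.753. The sign of these values follows the lung-rich split, also between libraries of different numbers. They therefore cannot tell whether the numbers pair the libraries. With the replicate block 0 genes were called. With 79 to 264 counts, Vcan is the member most limited by depth.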
